A study of Mus musculus with 10 samples.

Results

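Transcripts of 9 genes that mark vascular endothelium in general, Pecam1, Emcn, Egfl7, Icam2, Ecscr, Mmrn2, Clec14a, Cd34 and Cd93, were followed across the 10 libraries of the series. They were chosen by symbol, all 9 were found among the 23238 gene symbols shared by the count tables, and all 9 passed the filter on low counts that left 13040 genes for testing. The libraries came from endothelial cells purified from gliomas that had been grown in the brain of C57BL/6 mice from implanted GL26l cells. The Sox7 arm held 2 sets and the Sox17 arm 3 sets, each set being 1 control and 1 deficient library with the same number. Per the series' design text, deficient mice carried floxed Sox7 or floxed Sox17 alleles with Cdh5(BAC)-CreERT2, a tamoxifen-activated recombinase under the promoter of the VE-cadherin gene, and experimental mice received 20 mg/kg of tamoxifen by intraperitoneal injection. The labels used here do not state the alleles, recombinase or tamoxifen treatment of the controls, the ages of the mice, the marker used to purify the cells, or whether libraries came from separate animals. Effects of tamoxifen or recombinase activity therefore cannot be told apart from the deletion, and all p-values rest on the spread among these libraries, part of which may be technical.

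The 9 genes encode proteins that sit on the endothelial surface or are secreted into the vessel wall, and vascular biologists use them to recognise endothelium. Most are found across vessel types, while endomucin, the product of Emcn, is mainly venous and capillary. Some are not strictly endothelial: PECAM1 and ICAM2 are also carried by platelets and leukocytes, CD34 by blood progenitors and CD93 by myeloid cells. Because they are abundant and broadly endothelial, their summed counts give a rough measure of how much of a library is endothelial RNA. In bulk RNA, fewer endothelial cells and less of these transcripts per cell cannot be told apart.

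Sox7 and Sox17 bind DNA at a short core motif, and ETS factors, which act at many endothelial genes, at another, so the stretch upstream of the transcription start is shown for the genes with a RefSeq promoter entry (GRCm38.p6). Of the 9 genes, 4 matched: Emcn, Egfl7, Clec14a and Cd34. Each stretch runs from 250 to 41 bases upstream of the start, 5′ to 3′ on the gene's strand, and lies in no annotated exon of GENCODE vM21. Capitals mark the SOX core ACAAT and the ETS core GGAA on either strand (ATTGT and TTCC on the other). The Cd34 stretch is chr1:194938571-194938780 on the plus strand and that of Emcn chr3:137340828-137341037 on the plus strand. For Egfl7 the stretch of the most upstream of 3 RefSeq starts is chr2:26580833-26581042 on the plus strand. It lies inside the gene as GENCODE annotates it, which begins further upstream, at 26580014. That of Clec14a is chr12:58269299-58269508 on the minus strand.
Cd34: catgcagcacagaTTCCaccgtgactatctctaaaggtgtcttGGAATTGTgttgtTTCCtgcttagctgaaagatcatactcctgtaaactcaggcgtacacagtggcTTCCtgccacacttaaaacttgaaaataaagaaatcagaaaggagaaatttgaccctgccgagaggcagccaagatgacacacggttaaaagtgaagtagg
Emcn: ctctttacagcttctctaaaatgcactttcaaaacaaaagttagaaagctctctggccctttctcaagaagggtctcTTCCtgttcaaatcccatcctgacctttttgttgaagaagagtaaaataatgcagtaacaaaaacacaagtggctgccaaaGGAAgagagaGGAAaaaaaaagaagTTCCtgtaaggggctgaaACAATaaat
Egfl7: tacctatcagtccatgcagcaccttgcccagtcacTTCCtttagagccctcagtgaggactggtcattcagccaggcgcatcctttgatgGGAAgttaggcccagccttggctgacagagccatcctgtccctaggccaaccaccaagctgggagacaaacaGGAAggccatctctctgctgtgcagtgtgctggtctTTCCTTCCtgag
Clec14a: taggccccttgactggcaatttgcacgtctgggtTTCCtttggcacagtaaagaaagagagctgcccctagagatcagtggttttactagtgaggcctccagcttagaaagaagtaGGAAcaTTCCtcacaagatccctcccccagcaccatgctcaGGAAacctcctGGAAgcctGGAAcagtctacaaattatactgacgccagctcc
The SOX core occurred once upstream of Cd34, where it shares a base with an ETS core, and once upstream of Emcn, and these letters were not found in the Egfl7 and Clec14a stretches. Among 32807 RefSeq promoter stretches of the same 210 bases, 24.6% held the SOX core and 90.2% the ETS core. Clec14a held 6 ETS cores and Cd34 and Emcn 4 each, against a median of 2. The printed Egfl7 stretch held 5, and those of its other starts held 3 and 1 and no SOX core.

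Depth differed between libraries. Total counts over the shared symbols ran from 2082305 in Sox17 control 1 to 35068802 in Sox17-deficient 2, and the ribosomal RNA precursor Rn45s took 3.93% to 28.8% of the counts, the most in Sox7-deficient 1. The targeted transcripts followed the labels: Sox7 had 193 and 64 counts in its controls and 4 and 5 in the deficient libraries, and Sox17 had 384, 1140 and 1508 against 14, 38 and 54. Levels are given in CPM (counts scaled to a common library size). The 20 other endothelial genes examined summed to 9647 CPM in Sox7-deficient 1 and to between 12235.5 and 18755 CPM elsewhere. Markers of other cells were present too, unevenly. The 14 macrophage and microglia genes summed to 14154 CPM in Sox7-deficient 1, above the 20 endothelial genes, and to at most 835 CPM elsewhere, and the 7 erythroid genes summed to 3373 CPM in Sox17 control 1 and to at most 505 CPM elsewhere. The 5 astrocyte genes summed to 522 and 581 CPM in control and deficient of Sox7 set 2 and to 307 CPM in Sox17 control 2, against 67.2 to 93.8 CPM in the other 7 libraries. The 5 smooth muscle genes summed to 499.6 CPM in Sox17 control 1 and to at most 189 CPM elsewhere. The part of any of these cells in the levels of the 9 genes was not tested. B-cell markers summed to at most 2.89 CPM and T and NK cell markers to at most 16.9 CPM. Platelet markers summed to 7.26 to 64.7 CPM, the most in Sox7-deficient 1, and neutrophil markers to at most 39.6 CPM, in Sox7 control 1. The part of these blood cells was not tested either.

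The genes were abundant but unequal. The libraries were made to hold tags from the 3′ end of each transcript, so a count should not grow with transcript length. CPM levels are set side by side between genes on that basis. How well each 3′ end was captured and assigned to its gene was not tested. Egfl7, which encodes a secreted matrix protein of growing vessels, had the highest mean level, 4091 ± 1810.4 CPM (SD, n = 10), and was the eighth most abundant of the tested genes by mean CPM. Cd34 followed at 1999.7 ± 466 CPM and Cd93 at 1806 ± 552 CPM, a pair that overlapped in their spread over the libraries. Pecam1 averaged 892 ± 627 CPM, Clec14a 489.9 ± 224 CPM, Mmrn2 419.8 ± 112 CPM and Emcn 304 ± 92.8 CPM, so that neighbours in this order also overlapped. These spreads run across all groups and sets and do not compare the genes within a library. Icam2 averaged 198 ± 48.4 CPM, and Ecscr, the least abundant, 74.4 ± 46.0 CPM. Egfl7 was first of the 9 in 9 libraries, the exception being Sox17 control 1, where Cd34 was first. Ecscr was last in 9 libraries, again with the exception of Sox17 control 1. The smallest count behind any of these values was 201, for Ecscr.

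**Figure D1:**
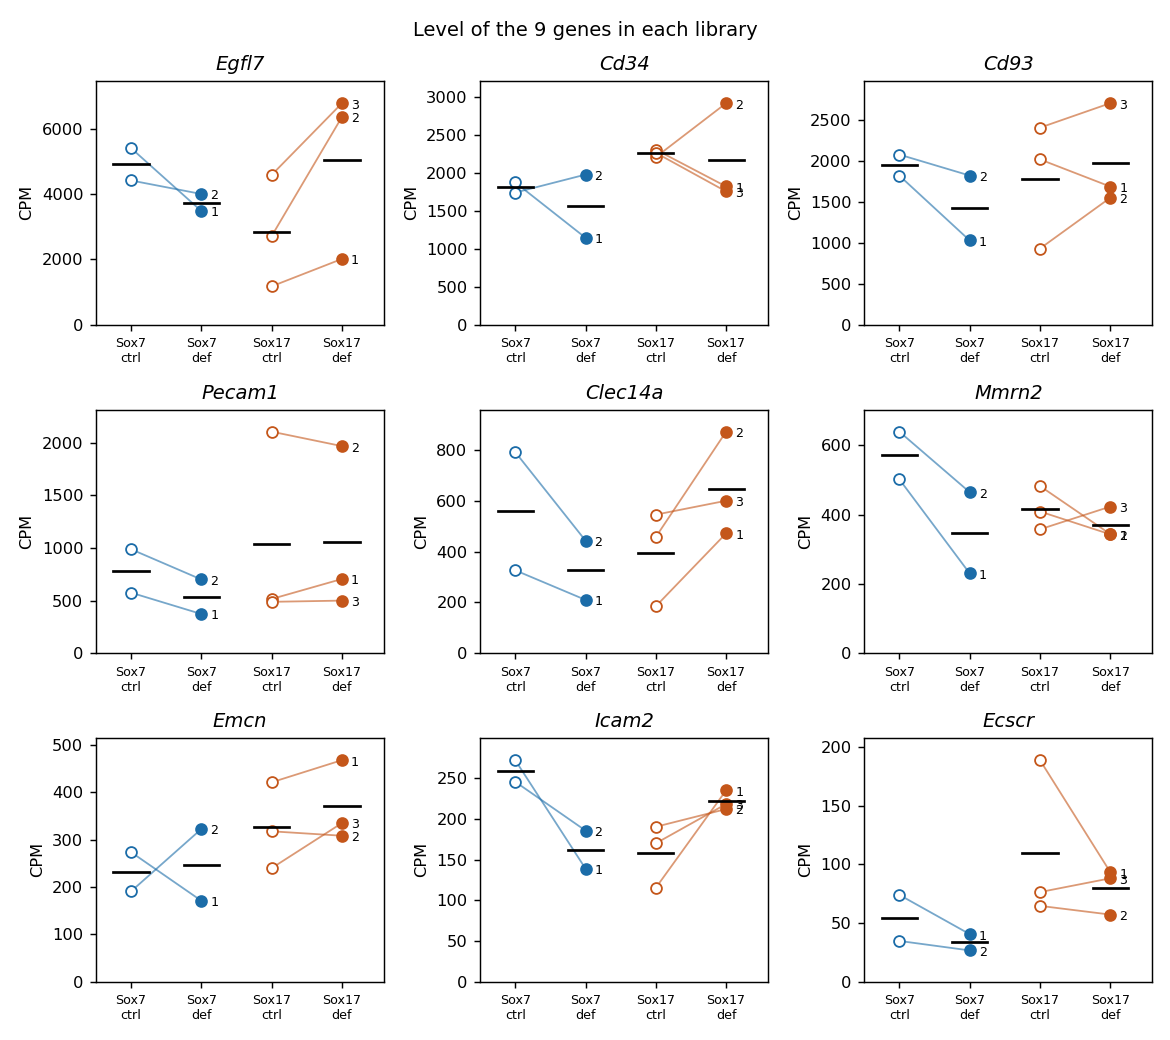
Level of each gene in CPM (linear axis from 0) in every library; open circles are controls, filled circles deficient libraries labelled with their set number, thin lines join a set and black bars are group means. Icam2 is lower in both Sox7-deficient libraries than in both Sox7 controls (12.8% of tested genes). It is higher in all 3 Sox17-deficient libraries than in all 3 Sox17 controls (4.13% of tested genes).

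Among the secreted proteins, Egfl7 was lower with Sox7 deleted and higher with Sox17 deleted in each set. Its Sox7 controls were at 5402 and 4413 CPM, and the deficient libraries of the same sets at 3477 and 3999 CPM. In the Sox17 arm the controls of sets 1, 2 and 3 were at 1176, 2714 and 4583 CPM and the deficient libraries at 2014, 6356 and 6776 CPM. Both Sox7-deficient libraries were below both controls (12.8% of tested genes), whereas the Sox17 groups overlapped because set 1 was low as a whole. The log2 fold change was −0.39 (SE 0.62; edgeR adjusted p = 1) for Sox7 and 0.84 (SE 0.51; edgeR adjusted p = 1) for Sox17. Both were within the spread between replicates in this fit, which does not pair libraries by set. With a replicate block, which does, edgeR gave −0.39 (SE 0.35) for Sox7 and 0.86 (SE 0.29, edgeR adjusted p = 0.862) for Sox17. DESeq2 with the block gave −0.37 (SE 0.29) for Sox7 and 0.83 (SE 0.23, DESeq2 adjusted p = 0.0542) for Sox17. Egfl7 (GRCm38 chromosome 2, 26580014 to 26593120, plus strand, protein-coding like the other 8) overlaps the 3′ end of Agpat2 on the opposite strand by 64 bases, and the strand setting of the counting is not given in the sources used here. Agpat2 itself had 0 to 176 counts per library, against at least 2591 for Egfl7. Gm20532, on the same strand, also covers the 3′ end of Egfl7 and shares 264 exon bases with it. It is not among the gene symbols shared by the count tables, so its part in the counts of Egfl7 was not tested. The annotated microRNA gene Mir126a lies within Egfl7 and is listed in the Sox17 tables only, where it had 1 count in Sox17 control 2 and 0 in the other 5 libraries.

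Mmrn2 encodes multimerin 2, a matrix glycoprotein that endothelium secretes and that binds CLEC14A and CD93 (chromosome 14, 34375465 to 34404287, plus strand). Its levels were 502 and 639.8 CPM in the Sox7 controls and 231 and 465 CPM in the Sox7-deficient libraries. The groups did not overlap, and 12.8% of tested genes were separated in this direction. Sox17 controls 1, 2 and 3 were at 483, 409 and 358 CPM and the deficient libraries at 344, 343 and 423 CPM, lower in sets 1 and 2 and higher in set 3. Deletion of Sox7 gave a log2 fold change of −0.72 (SE 0.47) and deletion of Sox17 one of −0.17 (SE 0.38), each with an edgeR adjusted p of 1. Without Sox7-deficient 1 the former was −0.32, and it was −1.31 without Sox7-deficient 2.

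The receptors of multimerin 2 were both in the list. Clec14a, a C-type lectin domain protein of tumour and developing endothelium (chromosome 12, 58264720 to 58269290, minus strand), had Sox7 control levels of 326 and 791 CPM and deficient levels of 209.8 and 443 CPM. It was lower in each set, but the groups overlapped since the controls differed from each other by more than either differed from its deficient library. In the Sox17 arm it was at 185, 457 and 545 CPM in controls and at 471, 871 and 599.6 CPM in deficient libraries, higher in each set. Fitted log2 fold changes were −0.78 (SE 0.59) and 0.71 (SE 0.48), with an edgeR adjusted p of 1 in each comparison. With the replicate block edgeR gave −0.74 (SE 0.38) and 0.81 (SE 0.32), and neither passed an adjusted p of 0.05. Without Sox7 control 2 the Sox7 value was −0.0025, and without Sox7-deficient 2 it was −1.41.

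Cd93, a related lectin-domain receptor of endothelial adhesion and migration (chromosome 2, 148436640 to 148443563, minus strand), was at 1822 and 2079 CPM in the Sox7 controls and at 1030.2 and 1823 CPM in the deficient libraries. Sox7-deficient 2 lay within 1 CPM of control 1, so the groups just overlapped. Sox17 controls were at 2021, 931 and 2408 CPM and deficient libraries at 1688, 1552 and 2707 CPM, lower in set 1 and higher in sets 2 and 3. The log2 fold changes were −0.45 (SE 0.53) and 0.15 (SE 0.43), and the edgeR adjusted p was 1 for both. Leaving out Sox7-deficient 1 gave −0.12 in the Sox7 comparison, and leaving out Sox7-deficient 2 gave −0.92.

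Of the adhesion molecules, Icam2 had groups that did not overlap in either arm. Icam2, a ligand for leukocyte integrins that sits at endothelial junctions (chromosome 11, 106377656 to 106388075, minus strand), was at 272 and 245 CPM in Sox7 controls and at 139 and 186 CPM in Sox7-deficient libraries. Sox17 controls were at 115, 190.2 and 169.9 CPM and Sox17-deficient libraries at 235, 212 and 218 CPM. Every deficient library was thus below every control in the Sox7 arm (12.8% of tested genes) and above every control in the Sox17 arm (4.13% of tested genes). The group means were 258.7 ± 18.8 and 162 ± 33.0 CPM (SD, n = 2 each) for Sox7 control and deficient, and 158 ± 38.7 and 222 ± 11.9 CPM (n = 3 each) for Sox17. The edgeR log2 fold changes were −0.67 (SE 0.45) and 0.48 (SE 0.36), with an adjusted p of 1 for each.

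Pecam1 encodes CD31, the homophilic adhesion molecule of endothelial junctions (chromosome 11, 106654217 to 106750628, minus strand), and its level went mainly with the set. It was at 575 and 988 CPM in the Sox7 controls against 373 and 700.5 CPM in the deficient libraries, lower in both sets with overlapping groups. In the Sox17 arm both libraries of set 2 were high, at 2104 CPM in the control and 1967 CPM in the deficient one. The other 4 Sox17 libraries lay between 488 and 705 CPM. Its log2 fold changes were −0.54 (SE 0.76) in the Sox7 and 0.03 (SE 0.62) in the Sox17 comparison (edgeR adjusted p = 1 for both), and the Sox17 value was −0.78 without Sox17-deficient 2 and 1.07 without Sox17 control 2. For Sox7 it was −1.07 without Sox7-deficient 2 and −0.10 without Sox7 control 2.

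The sialomucins Emcn and Cd34 did not follow the other genes in Sox7 set 2. Emcn, which encodes endomucin of venous and capillary endothelium (chromosome 3, 137341067 to 137432185, plus strand), was at 273 against 171 CPM in control and deficient of Sox7 set 1 and at 191 against 322 CPM in set 2. Its Sox17 values were 421, 317 and 239.6 CPM in controls and 467, 308 and 335 CPM in deficient libraries. Both pairs of groups overlapped, and the log2 fold changes were 0.09 (SE 0.48) and 0.18 (SE 0.39) with an edgeR adjusted p of 1. Cd34 (chromosome 1, 194938819 to 194961279, plus strand), a mucin-like ligand for selectins that is also prominent on angiogenic tip cells, was at 1873 against 1145 CPM in Sox7 set 1 and at 1739.5 against 1976 CPM in set 2. The 3 Sox17 controls lay close together at 2304, 2206 and 2263 CPM, whereas the deficient libraries were at 1819.7, 2916 and 1754 CPM, on both sides of the controls. For Cd34 the Sox7 comparison gave −0.21 (SE 0.47) and the Sox17 comparison −0.06 (SE 0.39) on the log2 scale, with an edgeR adjusted p of 1 for both. The 3′ end of Cd34 is overlapped by the antisense gene Gm16897, which had 0 to 25 counts per library, against at least 5078 for Cd34.

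Ecscr encodes a small endothelial membrane protein that regulates chemotaxis and growth factor signalling (chromosome 18, 35713086 to 35722356, minus strand). It was at 74.0 and 34.8 CPM in the Sox7 controls and at 40.6 and 26.7 CPM in the deficient libraries. In the Sox17 arm it was at 189, 64.6 and 76.4 CPM in controls and at 93.4, 57.2 and 88.1 CPM in deficient libraries, where Sox17 control 1 stood well above the other 9 libraries of the series. The log2 fold changes were −0.69 (SE 0.60) and −0.46 (SE 0.49), with an edgeR adjusted p of 1, and the Sox17 value was 0.16 without Sox17 control 1. For Sox7 it was −0.073 without Sox7 control 1 and −1.14 without Sox7 control 2. The whole gene lies within 1700066B19Rik on the opposite strand, which had 0 to 237 counts per library, against at least 201 for Ecscr. The 237 counts were in Sox17-deficient 2, where Ecscr had 2027. In Sox7-deficient 2 it was 59 against 201 for Ecscr, and in Sox7 control 2 it was 0 against 377.

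In the Sox7 comparison, 8 of the 9 genes had a log2 fold change below 0, Emcn being the exception, where 47.5% of all tested genes were below 0. Their median was −0.54, against 0.04 over all tested genes. Scaled to the 20 other endothelial genes instead, the median was −0.086, and Egfl7 (0.10) and Cd34 (0.21) were above 0 along with Emcn. None of the 9 passed an edgeR adjusted p of 0.05, where 0% of the 13040 tested genes passed, and none had an unadjusted p under 0.05, where 1.5% did. DESeq2 and limma-voom also called 0 of the 9 here and in the comparisons that follow. In both sets 7 genes were lower (22.5% of tested genes) and 0 were higher (22.3%). For Egfl7, Icam2 and Mmrn2 every deficient library was below every control (12.8% of tested genes), and for 0 of the 9 every deficient library was above (12.7%). The sets differed in size. In set 1 all 9 were lower (47.4% of tested genes), with differences of log2(CPM + 1) between −1.12 for Mmrn2 and −0.63 for Pecam1. In set 2 all but Emcn and Cd34 were lower, a count of 7 (46.2% of tested genes), with a median of −0.37 and a range from −0.84 for Clec14a to 0.75 for Emcn.

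Sox7-deficient 1 was the library with the most macrophage RNA. Its 14 macrophage and microglia genes summed to 14154 CPM, against 835 CPM in control 1, 232 CPM in control 2 and 123 CPM in Sox7-deficient 2, and the complement gene C1qa alone was at 9172 CPM. None of the 14 was at 0 in a whole group. The part of this RNA in the lower levels of set 1 was not tested beyond leaving the library out: 7 of the 9 genes then had a log2 fold change below 0, Emcn and Cd34 were above 0, and the median was −0.32. Without Sox7-deficient 2 the median was −0.90.

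**Figure D2:**
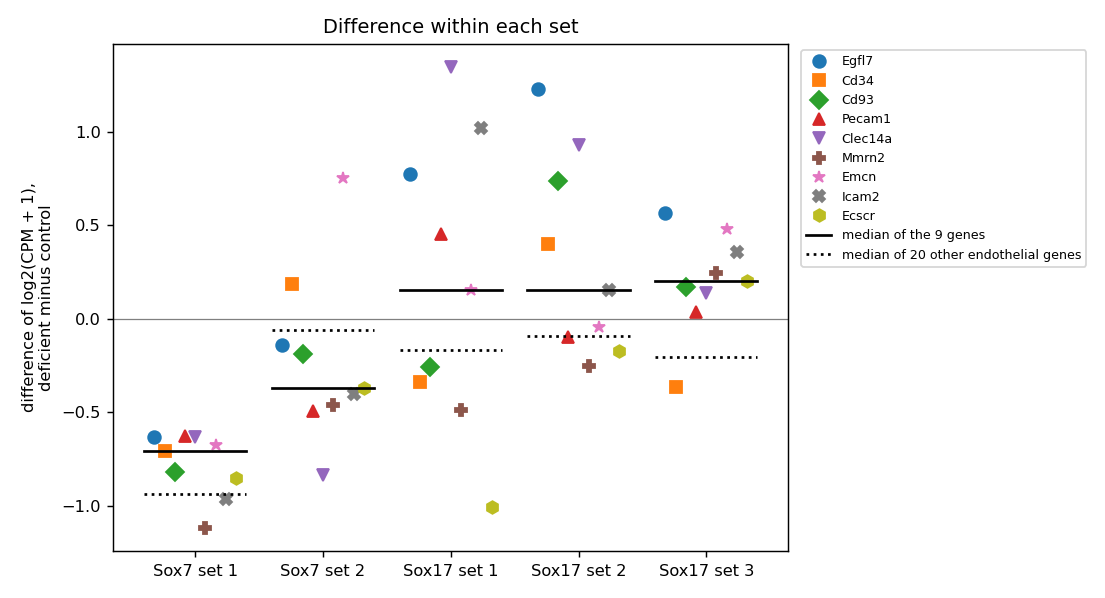
Difference of log2(CPM + 1), deficient minus control, for each of the 9 genes (symbols) in each of the 5 sets, with the median of the 9 genes (solid bar) and of 20 other endothelial genes (dotted bar). All 9 genes lie below 0 in Sox7 set 1, and Egfl7, Clec14a and Icam2 lie above 0 in all 3 Sox17 sets.

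In the Sox17 comparison, 6 genes had a log2 fold change above 0 and 3 (Cd34, Ecscr and Mmrn2) below 0, where 47.1% of all tested genes were below 0. The median was 0.15, against 0.05 over all tested genes. No gene of the 9 passed the edgeR adjusted p of 0.05 (0% of tested genes passed) and none had an unadjusted p under 0.05 (3.52% of tested genes). Egfl7, Clec14a and Icam2 were higher in all 3 sets (13.1% of tested genes), and Icam2 alone had every deficient library above every control (4.13% of tested genes). None of the 9 was lower in all 3 sets (11.5% of tested genes) or had every deficient library below every control (4.23%). By set, 4 of the 9 were lower in set 1 (37.4% of tested genes), 4 in set 2 (49.3%) and 1 in set 3 (55.6%). The SD of the differences over the 9 genes was 0.78, 0.53 and 0.27 in Sox17 sets 1, 2 and 3. It was 0.17 in Sox7 set 1 and 0.46 in Sox7 set 2. In Sox17 set 1 the differences ran from −1.01 for Ecscr to 1.35 for Clec14a. They ran from −0.25 for Mmrn2 to 1.23 for Egfl7 in set 2, and from −0.37 for Cd34 to 0.56 for Egfl7 in set 3. Sox17 control 1, the shallowest library, had summed erythroid marker levels of 3373 CPM, against 191 to 471 CPM in the other controls and 87.5 to 505 CPM in deficient libraries. Pericyte markers summed to 292 to 871 CPM in Sox17 controls and to 221 to 254 CPM in deficient libraries. None of the 7 erythroid and 9 pericyte genes was at 0 in a whole group, and the part of these cells in the differences was not tested. Without Sox17 control 1, the genes below 0 were Pecam1, Mmrn2 and Cd34, with Pecam1 at −0.30 and Ecscr above 0 at 0.16. In that fit the log2 fold change of Egfl7 was 0.46, that of Clec14a 0.36 and that of Icam2 0.29.

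**Figure D3:**
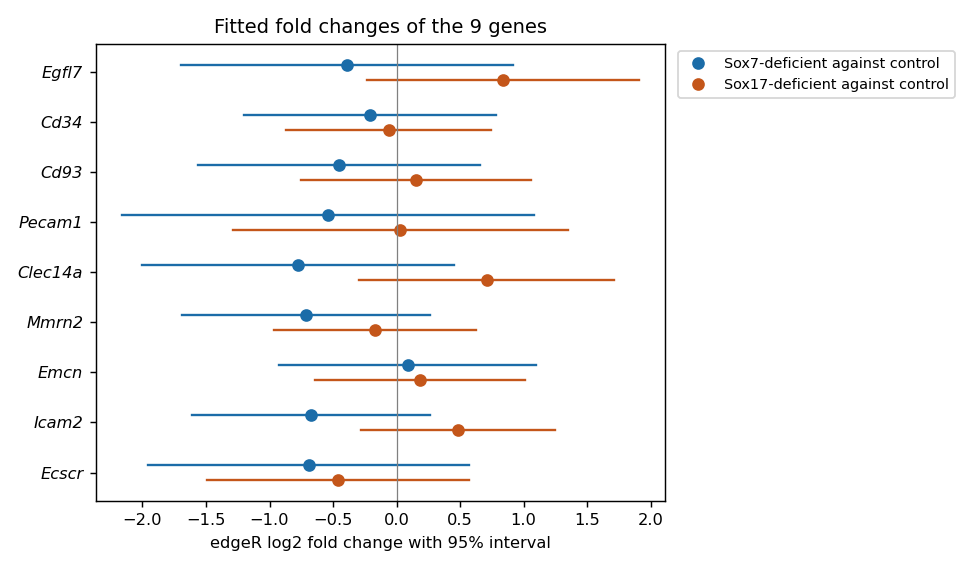
Fitted edgeR log2 fold change (points) with its 95% interval (lines) for the 9 genes in both comparisons. Every interval includes 0; for Sox17, that of Egfl7 runs from −0.23 to 1.91.

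The intervals leave room for sizeable differences in either direction. For Icam2 the 95% interval was −1.61 to 0.26 in the Sox7 comparison and −0.28 to 1.24 in the Sox17 comparison, and for Pecam1, the widest, −2.16 to 1.08 and −1.29 to 1.35. The 2 arms had separate controls, so their differences could be compared in the same fit. All 9 genes had a lower log2 fold change in the Sox7 than in the Sox17 comparison (49.4% of tested genes), with a median difference of −0.57 against 0.02 over all tested genes. The values for Clec14a (−1.49, SE 0.76), Egfl7 (−1.23, SE 0.81) and Icam2 (−1.16, SE 0.57) were the furthest from 0, and that of Emcn (−0.10, SE 0.62) the nearest. None passed an edgeR adjusted p of 0.05 (0% of tested genes; adjusted p = 0.999986 for each of the 9) and none had an unadjusted p under 0.05 (2.87% of tested genes). Clec14a, Egfl7 and Icam2 were lower in both Sox7 sets and higher in all 3 Sox17 sets, a pattern held by 3.08% of tested genes, and 0 of the 9 held the opposite one (2.19%). The pattern depended on the scaling: relative to the mean difference of the 20 other endothelial genes, Sox7 set 1 was at 0.37 for Clec14a, 0.37 for Egfl7 and 0.04 for Icam2, above 0, while Sox7 set 2 was at −0.85, −0.16 and −0.42. All 3 Sox17 sets stayed above 0 for these genes on that scale.

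Taken as a measure of endothelial RNA, the 9 genes together made up between 0.513% and 1.47% of the counts of a library. In Sox7 set 1 the share was 0.976% in the control and 0.513% in the deficient library, a ratio of 0.525. Set 2 had 1.24% and 1.1%, a ratio of 0.888. As a log2 ratio, set 1 was at −0.93 on all counts, −0.80 with Rn45s left out and −0.71 on the scaled library size. Set 2 was at −0.17, −0.13 and −0.16 in the same order. The groups overlapped, since Sox7-deficient 2 lay between the controls, at a group mean of 0.809% ± 0.418 (SD, n = 2) against 1.11% ± 0.189 (n = 2). In the Sox17 arm the shares of control and deficient were 0.784% and 0.854% in set 1, 1.03% and 1.47% in set 2, and 1.07% and 1.32% in set 3. The deficient share was higher in each set, by a ratio of 1.09, 1.43 and 1.24, while the groups overlapped, at 1.22% ± 0.323 against 0.961% ± 0.154 (SD, n = 3 each). The Sox17 groups also overlapped with Rn45s left out and on the summed CPM. In the shallowest library the Wilson 95% interval of the share was 0.772% to 0.796%; these intervals cover counting error only.

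Egfl7 weighed heavily in this sum. It supplied 39.7% to 51.0% of the counts of the 9 genes in the Sox7 arm and 15.9%, 28.9% and 41.2% in Sox17 controls 1, 2 and 3, against 25.7%, 43.6% and 50.6% in the deficient libraries of the same sets. Without Egfl7, the log2 ratio of deficient to control share in Sox17 sets 1, 2 and 3 was −0.06, 0.18 and 0.05, in place of 0.12, 0.52 and 0.31. In the Sox7 sets it was −0.999 and −0.18, in place of −0.93 and −0.17.

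**Figure D4:**
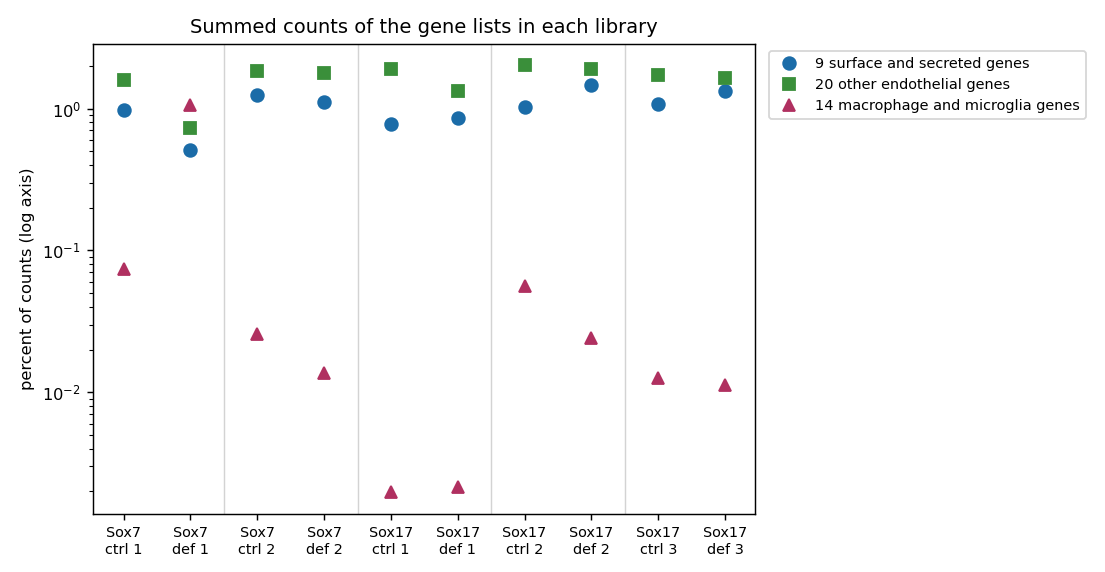
Summed counts of 3 gene lists as a percent of all counts (log axis) in each library, sets side by side. The 9 genes and the 20 other endothelial genes are lowest in Sox7-deficient 1, where macrophage and microglia genes take 1.07% of the counts.

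A list of 20 other endothelial genes, among them the junction gene Esam and the VEGF receptor gene Flt1, its most abundant members, differed from the 9 in the Sox17 arm. These genes took 1.58% of the counts in the control and 0.726% in the deficient library of Sox7 set 1, and 1.85% and 1.79% in set 2, in the same direction as the 9 genes. In the Sox17 sets their shares were 1.91% and 1.33%, 2.02% and 1.90%, and 1.72% and 1.65%, lower in each deficient library, where the 9 genes were higher. On the scaled CPM the 20 genes summed to 18399.5 in the control and 18755 in the deficient library of set 2, so there the direction turned with the scaling. The ratio of the counts of the 9 genes to those of the 20 was 0.411, 0.511 and 0.621 in Sox17 controls and 0.641, 0.778 and 0.803 in Sox17-deficient libraries, with no overlap. Leaving Egfl7 out of the 9 gave 0.346, 0.363 and 0.365 against 0.476, 0.439 and 0.397, again without overlap. Among single tested genes, 4.13% had every Sox17-deficient library above every control, and no such share was worked out for ratios of lists. Without Egfl7, the log2 ratio of deficient to control share of the remaining genes was −0.06, 0.18 and 0.05 in sets 1, 2 and 3. That of the 20 genes was −0.52, −0.089 and −0.066, so in set 1 the higher ratio came from the lower share of the 20. In the Sox7 arm the ratio of counts, with Egfl7, was 0.617 and 0.673 in controls and 0.707 and 0.617 in deficient libraries, and did not separate the groups.

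By gene, 19 of the 20 had a log2 fold change below 0 in the Sox7 comparison (47.5% of tested genes), with a median of −0.42, and 11 of the 20 in the Sox17 comparison (47.1%), with a median of −0.18. None passed the edgeR adjusted p of 0.05 in either, and 0 and 3 of the 20 had an unadjusted p under 0.05 (1.5% and 3.52% of tested genes). Those 3 all had a log2 fold change below 0 in the Sox17 comparison, from −1.08 to −0.81. Esam was at −0.49 (SE 0.51) and 0.23 (SE 0.41), and Flt1 at −0.25 (SE 0.51) and −0.81 (SE 0.42). All 20 were lower in Sox7 set 1 (47.4% of tested genes) and 11 of the 20 in set 2 (46.2%), so that the smaller difference of set 2 was shared by this list.

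The 9 genes also varied among themselves. Over the 10 libraries the SD of log2(CPM + 1) ran from 0.35 for Cd34 to 0.85 for Pecam1. After the mean of the 9 genes was taken from each library, the SD was 0.24 for Cd34, 0.30 for Icam2 and 0.35 for Mmrn2, but 0.72 for Pecam1, 0.72 for Egfl7 and 0.80 for Ecscr. The last 3 thus kept most of their spread: Pecam1 was high in Sox17 set 2, Egfl7 low in Sox17 set 1 and Ecscr high in Sox17 control 1. Sox7-deficient 1 was the lowest of all 10 libraries for Cd34, Pecam1, Mmrn2 and Emcn, and Sox17 control 1 for Egfl7, Clec14a and Icam2.

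Among 8311 other tested genes with a mean of at least 10 CPM, those whose profile over the 10 libraries lay nearest to the mean of the 9 genes were Agap1, Swap70, Actn4, Top2b and Nxn. Likeness was the root mean square difference of centred log2(CPM + 1) values, which was 0.13 for Agap1, 0.16 for Swap70 and for Actn4, 0.17 for Top2b and for Nxn, and 0.71 at the median of these genes. Of the 20 other endothelial genes the receptor tyrosine kinase gene Tie1 was nearest (0.25, rank 48) and Cldn5, of tight junctions, came next (0.26, rank 58). The measure is not scaled by the spread of a gene, so a gene that barely changes over the libraries also scores low. Values near 0.25 therefore cannot tell a shared profile from a flat one. Cd34 was the nearest of the 9 to their own mean (0.23) and Ecscr the furthest (0.76).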

How the data were processed

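RNA was measured in 10 libraries. The authors deposited 1 table of raw counts by gene symbol for each library, whole numbers with unequal totals. Trizol was used for extraction and the QuantSeq kit of Lexogen, a 3′ tag method, for the libraries, per the labels' protocols. Bowtie2 and edgeR were named, with mouse build mm10 (GRCm38), per the submitters' processing notes, without version or role; annotation, counter and strandedness are not given in the sources used here, and no molecular identifiers are mentioned. The 1183 symbols found only in the Sox17 tables, all starting with Mir, were left out, and repeated lines of a symbol were summed.

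Groups and set numbers came from sample titles. Testing used edgeR 4.0.16 in R 4.3.3 (quasi-likelihood F-test, robust, a mean per group over all 10 libraries, TMM scaling, filterByExpr, Benjamini-Hochberg adjustment over the 13040 genes tested, threshold 0.05). Standard errors were derived from the fold change and its F statistic. CPM is relative to the TMM-scaled counts of tested genes, and set differences use log2(CPM + 1). Alternatives used DESeq2 1.42.0, limma 3.58.1, other scalings and filters, a replicate block, and each library left out. Set numbers were taken to pair libraries because the sample descriptions of 4 of the 5 sets share a dated label. Paired libraries' deviations from their group means correlated at 0.193 in the Sox7 arm and at 0.12, 0.091 and 0.09 in Sox17 sets 1, 2 and 3.

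The genes and lists were chosen with earlier results of these data known. All 9 genes were named; of marker lists, genes past the threshold or the 2 most abundant; and the 5 genes most alike. Promoter sequences are from RefSeq (GRCm38.p6) and positions from GENCODE vM21 (GRCm38). Precision is limited by the number of libraries: 3 counts correspond to 0.0847 CPM in the deepest and 1.36 CPM in the shallowest.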

Additional observations from a re-analysis of the deposited data

Results flagged for a closer look

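Clec14a, Egfl7 and Icam2 were lower in the deficient library of both Sox7 sets and higher in that of all 3 Sox17 sets on the scaled CPM. Relative to the 20 other endothelial genes, Sox7 set 1 was instead above 0 for all 3, at 0.37, 0.37 and 0.04. The difference between the log2 fold changes, Sox7 minus Sox17, was −1.49 for Clec14a, −1.23 for Egfl7 and −1.16 for Icam2. Tested in the same fit, none passed (edgeR adjusted p = 0.999986 for each; unadjusted p = 0.065, 0.144 and 0.0591), and 3.08% of all tested genes held the same pattern. Under each of the alternatives run, each of the 3 kept its sign, with the lowest adjusted p at 0.139 for Clec14a, 0.14 for Egfl7 and 0.527 for Icam2. Without Sox7-deficient 1, the library with the most macrophage RNA, the values were −1.05, −1.15 and −0.97 in the same order, and without Sox17 control 1, with the most erythroid RNA, −1.14, −0.86 and −0.98. Without Sox7 control 2, that of Clec14a was −0.71.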

How the results depend on the processing

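None of the 9 genes passed an adjusted p of 0.05 in any comparison under any alternative run. Unadjusted p values under 0.05 numbered at most 2, 2 and 3 of the 9 (Sox7, Sox17 and difference), the most with the replicate block. The block also raised this count over all 13040 tested genes. For Sox7 and Sox17 it was 1052 and 1129 with DESeq2 and 302 and 511 with edgeR, against 195 and 459 in the main edgeR fit. The lowest adjusted p was 0.0542 for Egfl7 in the Sox17 comparison, with DESeq2 and the replicate block (edgeR with the block: 0.862). The block, which pairs libraries by set, changed no call for the 9 genes and gave 1, 6 and 3 called genes over all genes with edgeR and 19, 89 and 40 with DESeq2, in the order Sox7, Sox17 and difference, against 0, 0 and 0 in edgeR without it. DESeq2 without the block called 3, 29 and 14, edgeR without a filter 58, 30 and 58, and scaling to the other endothelial genes 1 in the Sox17 comparison. Leaving out 1 library gave 0 to 14, 0 to 1 and 0 to 9, the most without Sox7-deficient 1 for Sox7 and for the difference. The median log2 fold change of the 9 genes ranged from −0.90 to −0.32, 0.0047 to 0.30 and −1.10 to −0.26 in those fits. Scaled to the 20 other endothelial genes it was −0.086 for Sox7 and 0.37 for Sox17. The Sox17 median was 0.094 with upper quartile scaling, 0.22 with limma-voom and 0.20 with the replicate block.

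Signs turned for some uncalled values. Relative to the other endothelial genes, Egfl7 (0.10) and Cd34 (0.21) were above 0 for Sox7, Mmrn2 (0.058) and Cd34 (0.13) for Sox17, and Emcn (0.028), Ecscr (0.10) and Cd34 (0.076) for the difference. Pecam1 for Sox17 was −0.013 with upper quartile scaling and −0.031 with total counts. Leaving out 1 library turned Emcn (−0.44 to 0.45) and Cd34 (−0.66 to 0.10) for Sox7. For Sox17 it turned Pecam1 (−0.78 to 1.07), Emcn (−0.025 to 0.40), Ecscr (−0.74 to 0.16), Cd34 (−0.34 to 0.069) and Cd93 (−0.17 to 0.43). For the difference it turned Pecam1 (−1.62 to 0.24), Emcn (−0.63 to 0.28), Ecscr (−0.87 to 0.41) and Cd34 (−0.60 to 0.18). The cause was not tested. With the 20 other endothelial genes in place of the 9, the log2 ratio of shares in Sox17 sets 1, 2 and 3 was −0.52, −0.089 and −0.066, and without Egfl7 it was 0.18 in set 2 and 0.054 in set 3. Pseudocounts of 0.5 and 5 turned the sign of no difference per set. Leaving mitochondrial genes out of the total was not run, since no symbol started with mt-. The count of genes below 0 without Sox7-deficient 1 or Sox17 control 1 was chosen after seeing the data.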
